A study of Mus musculus with 9 samples.

Results

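The genes described here encode 45 enzymes of amino acid breakdown, given as a list of mouse gene symbols, and every row of the count table with one of these symbols was taken. The list matched 46 of 55401 rows, since *Gcat* had 2 rows. Of these 46 rows, 43 passed the filter on low counts and were tested among 15717 genes, while *Bcat1*, *Tdh* and the second *Gcat* row did not pass it. By the amino acid they handle, the 43 rows fell into tyrosine (4), general transaminases (4), proline (3), branched-chain amino acids (14), the propionyl-CoA route that these share with other amino acids (3), lysine (3), glycine and threonine (6), sulfur amino acids (3) and histidine (3).

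The liver is the main organ that breaks down amino acids. Most chains begin with removal of the amino group or with an oxidation, and the carbon skeletons then run, mostly inside mitochondria, to pyruvate, acetyl-CoA or intermediates of the citric acid cycle. Hepatocytes carry most of these enzymes, and several of them, such as tyrosine aminotransferase, are textbook markers of the mature hepatocyte.

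RNA from whole livers of female mice was sequenced in 3 groups with 3 livers each. Healthy livers came from wild-type mice that received no treatment. Untreated HCC livers came from mice whose liver tumors (hepatocellular carcinoma) were raised by hydrodynamic tail vein injection of oncogene plasmids with the Sleeping Beauty transposase. These mice then received a blank AAV8 vector 1 week after the oncogenes. miR-22-treated HCC livers came from such tumor-bearing mice given AAV8 carrying miR-22, a microRNA, under a CMV promoter at the same time. Both HCC groups were harvested 5 weeks after the oncogenes and 4 weeks after the vector, while no time was given for the healthy livers, and the mice were obtained at 6 weeks of age. The series design names RAS and AKT as the oncogenes, while the shared protocol also lists a β-catenin plasmid. The labels name the strain as FVB/N in one field and as C57BL/6 in another, and the labels and the study's methods give different vector doses. Healthy livers received neither plasmids nor vector, so tumor, plasmid injection and vector cannot be told apart in the comparisons with them. The labels give each library as a separate sample and do not say more on how replicates were taken, so the p-values measure the spread between these samples.

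Between 16664659 and 23908392 counts per liver lay behind the values. Levels are given as normalized counts, meaning counts scaled by TMM to one common library size of 19401057. Bulk RNA of a liver holds tumor and every other cell type together, so that fewer cells of a type and less RNA per cell cannot be told apart. The 10 hepatocyte markers (among them *Alb* and *Hnf4a*) were present in every liver, with summed levels of 2523680 to 2618700 in healthy, 977128 to 1233090 in untreated and 1522080 to 1875830 in miR-22-treated livers, and all 10 were called lower in untreated HCC and 7 higher after miR-22. The 6 cholangiocyte markers ran from 572 to 816, from 64801 to 121460 and from 30414 to 52662 in the same order of groups. *Spp1* made up most of each sum, with group means of 520, 89639 and 39135. *Krt7*, by contrast, had means of 14.8, 47.4 and 25.4, and *Krt19* was called in no comparison. Of the 6 markers, 5 were called higher in untreated HCC and 4 lower in treated against untreated HCC. The 8 stellate cell and fibroblast markers summed to between 5229.8 and 5860.1, between 17468 and 20251, and between 13313 and 16068, with 5 of 8 called higher and 2 lower (*Lrat* and *Dcn*) in untreated HCC, and 2 lower and 2 higher (again *Lrat* and *Dcn*) in treated against untreated HCC. The 6 endothelial markers summed to between 6391 and 8024, between 4034 and 5141, and between 5355 and 6868, with 3 of 6 called lower in untreated HCC and 1 (*Clec4g*) higher in treated against untreated HCC. The 5 neutrophil markers, of which *Ly6g* was at 0 in 8 of 9 livers, summed to between 33.0 and 87.8, between 338 and 439.6, and between 322 and 470.5. All 4 tested neutrophil markers were called higher in untreated HCC, while their log2 fold changes in treated against untreated HCC ran from -0.28 to 0.20 and were not called. The 7 macrophage, 6 T and NK cell and 4 B cell markers had at most 1 call per list and comparison. The part of any of these cell types in the results below was not tested.

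The agent given was miR-22, whose mature 3p strand in mouse (RefSeq, chr11:75463772-75463793 on GRCm38.p6, plus strand) is shown because its seed decides which transcripts it can pair with. The seed, bases 2 to 8, is in capitals.
mmu-miR-22-3p: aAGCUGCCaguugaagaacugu
The 7-base match to this seed, GGCAGCT, was searched on the sense strand of the annotated 3′ UTR of each gene's canonical transcript (GENCODE vM39). It was found in 3 of the 43 tested members (6.98%), *Cdo1*, *Hibadh* and *Ivd*, against 16.9% of the 13559 tested genes with such a UTR. The median 3′ UTR length was 804 bases for the members and 1339 for all of these genes. A match is a description of letters and not a shown site. The matches in *Hibadh* and *Ivd* are given with the match in capitals.
Hibadh: ttgataggtaaGGCAGCTtgttggccctt
Ivd: cactgggctaaGGCAGCTatatgggggtt
*Hibadh* and *Ivd* held 1 match each and *Cdo1* held 4, which are not printed. In treated against untreated HCC, *Hibadh*, *Ivd* and *Cdo1* were 1.66-fold, 1.74-fold and 2.03-fold higher.

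The first comparison, untreated HCC against healthy livers, addressed how tumor-bearing livers without miR-22 differed from healthy ones. A gene was called where the quasi-likelihood F test of edgeR gave an adjusted p below 0.05 and the fold change was over 1.5. Of the 43 tested members, 38 were lower in untreated HCC, 1 was higher (*Csad*) and 4 were not called (*Gpt2*, *Gldc*, *Amt* and *Gcsh*), whereas 18.1% of all tested genes were lower and 22.7% higher. The median log2 fold change was -1.43 over the members and 0.01 over all tested genes. Group means in untreated HCC lay between 14.6% (*Prodh*) and 90.4% (*Gldc*) of the healthy mean for every tested member except *Csad*, which stood at 361%.

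The second comparison, miR-22-treated against untreated HCC, addressed how tumor-bearing livers given vector-delivered miR-22 differed from those given the blank vector. In female mice of the RAS and AKT model, the study reported a lower liver-to-body weight ratio after miR-22, with histology in the same direction. The part of tumor load in this comparison was not tested. Below, "after miR-22" stands for this comparison. Here 27 members were higher, 0 were lower and 16 were not called. All 43 log2 fold changes were above 0, so that 0 members were lower at an unadjusted p under 0.05 either, and 0 were called lower with DESeq2. Among all tested genes 8.32% were higher and 5.47% lower. The median log2 fold change was 0.72 over the members and 0.00 over all genes. Of the 27 calls, those of *Aldh4a1* (log2 fold change 0.60) and *Mccc2* (0.59) lay just past the fold threshold.

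The third comparison, miR-22-treated HCC against healthy livers, addressed the difference that was left after treatment. There 23 members were lower, 1 was higher (*Csad*) and 19 were not called, beside 7.05% lower and 16.9% higher among all genes. The median was -0.71 over the members and 0.02 over all genes. The 3 comparisons share livers pairwise, so their values stand side by side and are not independent of each other. No liver was followed over time, so words such as fell, rose or still describe differences between groups.

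Over all genes, the balance of calls depended on the scaling between libraries. With library totals alone, 1492 genes were lower and 5986 higher in untreated HCC, against 2842 and 3575 with TMM. For treated against untreated HCC the same change gave 2164 lower and 835 higher in place of 859 and 1308, and for treated HCC against healthy livers it gave 593 and 3408 in place of 1108 and 2664. Among the members, library totals gave 31 lower and 1 higher, 0 lower and 14 higher, and 17 lower and 1 higher in the 3 comparisons in that order. The calls lost in untreated HCC against healthy livers were those of *Bckdha* (log2 fold change -0.58), *Mcee* (-0.43), *Bckdhb* (-0.36), *Auh* (-0.33), *Acad8* (-0.25), *Got2* (-0.24) and *Dld* (-0.19). In treated against untreated HCC 13 calls were lost, those of *Acadsb*, *Aldh4a1*, *Bckdha*, *Dbt*, *Dmgdh*, *Gcat*, *Got1*, *Gpt*, *Hibadh*, *Hibch*, *Ivd*, *Mccc2* and *Uroc1*, at 0.35 to 0.58. In treated HCC against healthy livers the 6 lost calls were those of *Aadat*, *Aass*, *Cdo1*, *Fah*, *Mccc1* and *Pccb*, at -0.58 to -0.43.

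**Figure D1:**
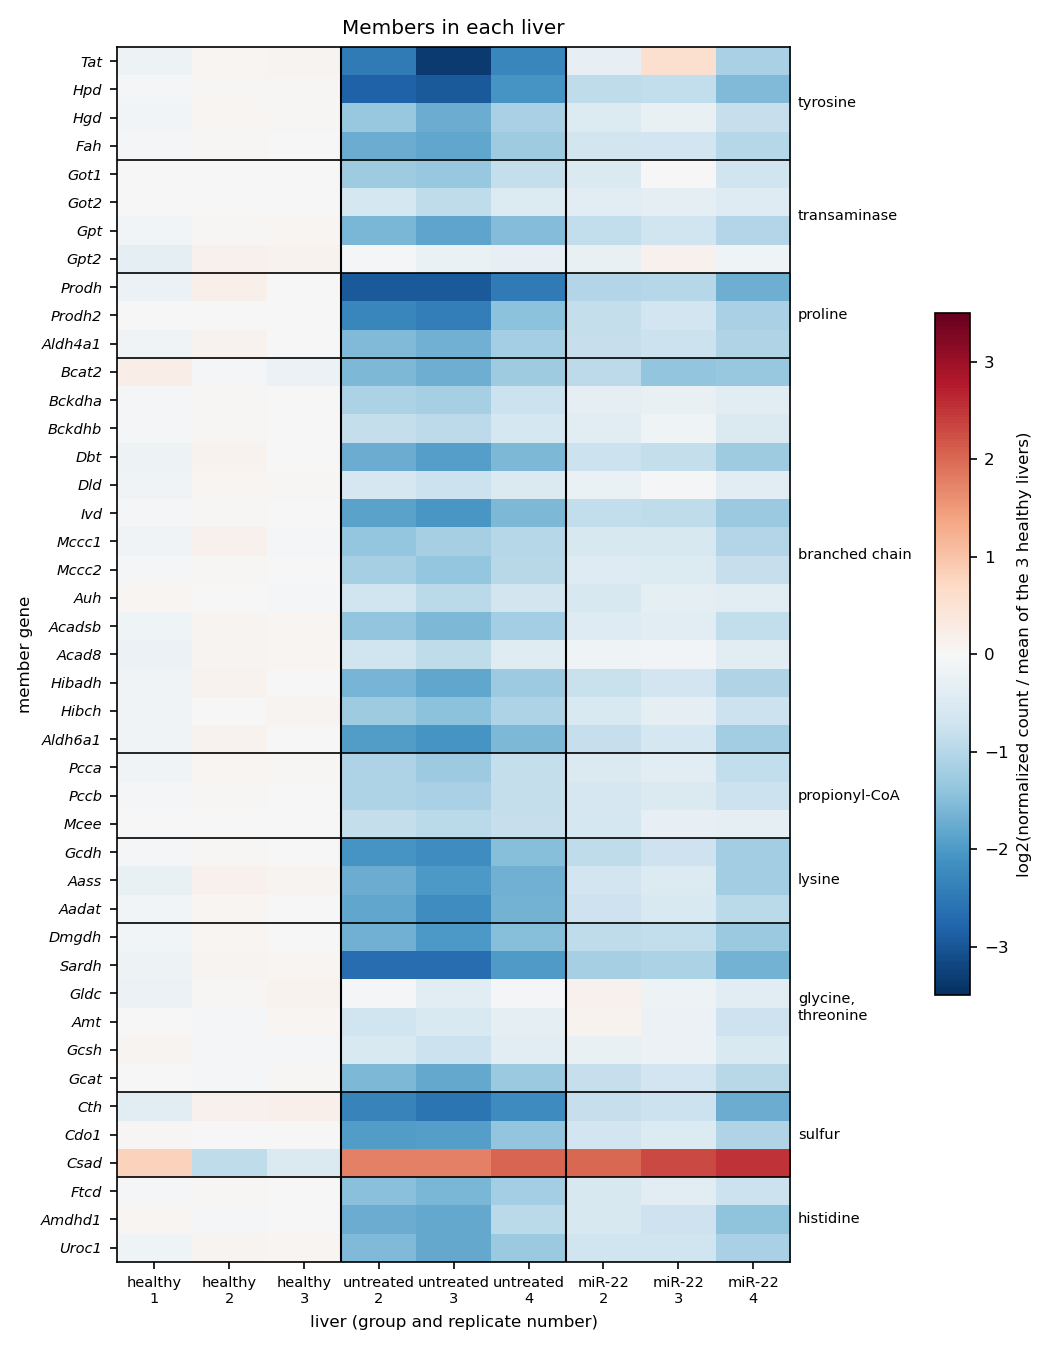
Log2 ratio of each tested member's normalized count to the mean of the 3 healthy livers, by liver (columns) and member (rows, grouped by amino acid). Blue is below and red above the healthy mean. The 3 untreated livers were the bluest, the 3 miR-22-treated livers lay between, and the row of *Csad* was red in all 6 tumor-bearing livers.

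**Figure D2:**
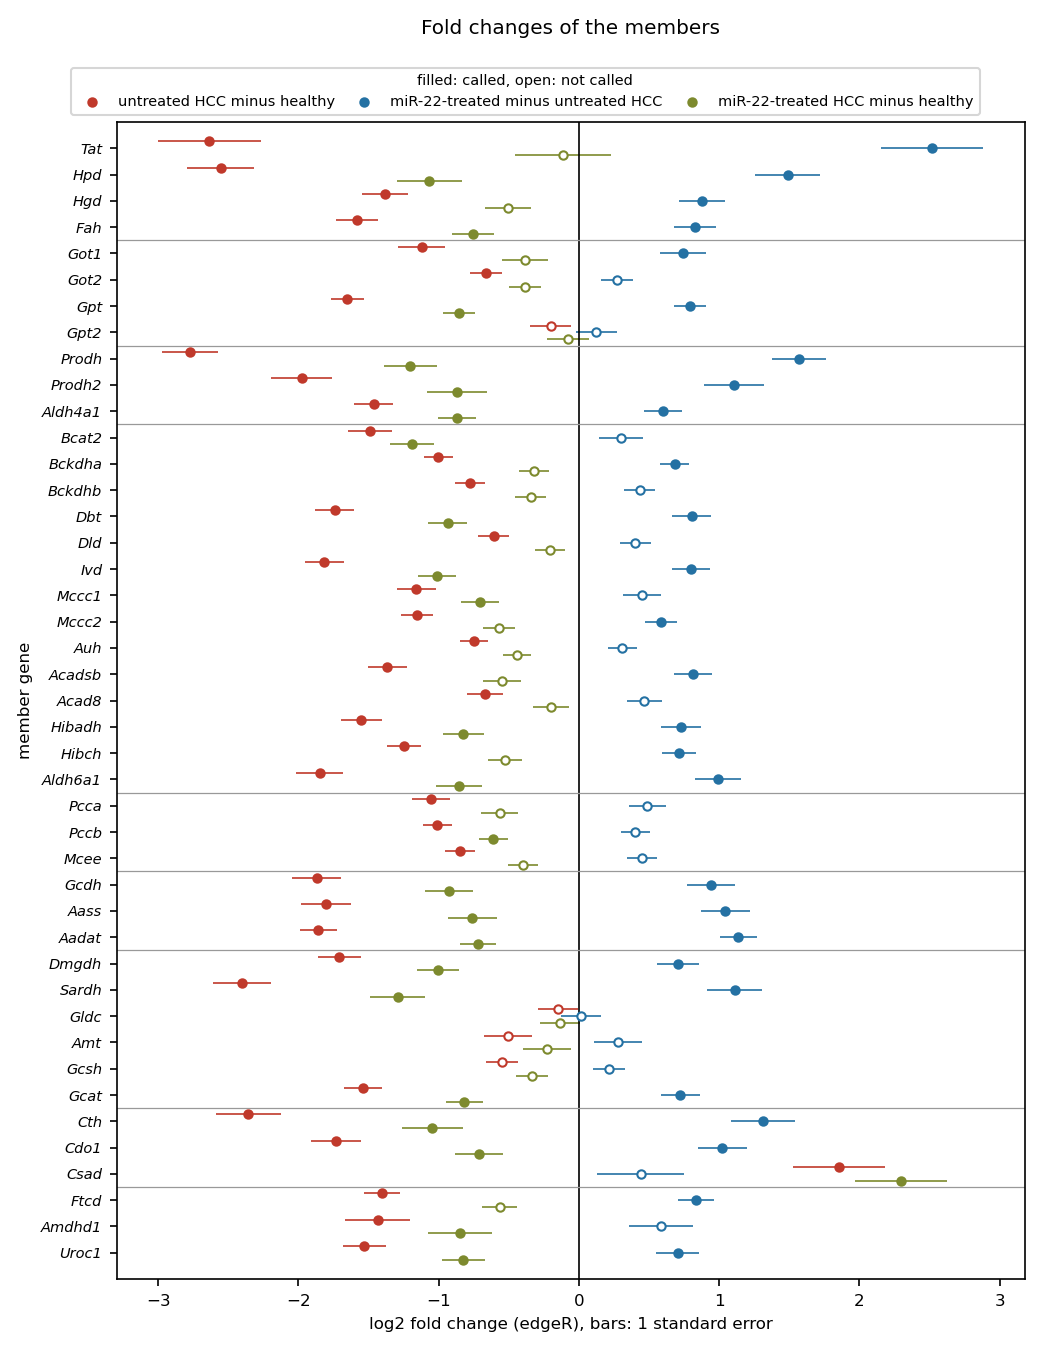
Log2 fold change (x axis, edgeR) of each tested member (rows) in the 3 comparisons, with bars of 1 standard error. Filled points were called. Red points (untreated minus healthy) reached -2.77 for *Prodh*, blue points (treated minus untreated) reached 2.52 for *Tat*, and all blue points lay above 0, *Gldc* at 0.01.

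The livers of a group kept an order across the members. Untreated replicate 3 was the lowest of its group for 37 of the 43 members and replicate 4 the highest for 41, and the median member stood at 34.2%, 30.7% and 44.2% of the healthy mean in untreated replicates 2, 3 and 4. Among the treated livers, replicate 4 was the lowest for 38 members and replicate 3 the highest for 33, with medians of 66.6%, 71.3% and 51.0% in replicates 2, 3 and 4. Among the healthy livers, replicate 1 was the lowest for 32 members, although its hepatocyte marker sum was the highest (2618700, beside 2551500 and 2523680). In both HCC groups the hepatocyte marker sums, made up mostly of *Alb*, had the same lowest and highest livers as the members. These sums were 1036500, 977128 and 1233090 in untreated and 1707070, 1875830 and 1522080 in treated replicates 2, 3 and 4. The levels of *Akt1* and *Nras*, the genes of the injected oncogenes, were picked after they were seen. The level of *Akt1*, whose reads can come from the injected oncogene as well as from the mouse gene, ran the other way, at 31315, 32454 and 22700 in untreated and 15472, 13027 and 21424 in treated replicates 2, 3 and 4, beside 2002 to 2105 in healthy livers. *Nras* was at 1339, 1499 and 1228 in untreated and at 1073, 1034 and 1069 in treated replicates 2, 3 and 4, beside 521 to 575 in healthy livers, so that its untreated livers had the order of *Akt1* and its treated livers lay close together. Whether these differences between livers account for any member's change was not tested. Members varied less among healthy livers (median coefficient of variation 5.89%) than among untreated (15.6%) and treated (16.3%) ones.

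Tyrosine breakdown was lower at all 4 of its members in untreated HCC and higher at all 4 after miR-22. The chain runs from *Tat*, the aminotransferase that starts it in the cytosol, through the dioxygenases *Hpd* and *Hgd*, the latter of which opens the ring, to *Fah*, the hydrolase that ends it. The isomerase between *Hgd* and *Fah*, *Gstz1*, is not on the member list and was picked after its values were seen. It had log2 fold changes of -1.45 ± 0.14 in untreated HCC and 0.85 ± 0.14 after miR-22, both called. Of the tested members, *Tat* had the largest rise after miR-22. Its normalized counts were 33966, 39852 and 41072 in the healthy livers, 6889, 3792 and 7820.5 in untreated replicates 2, 3 and 4, and 31681, 56913 and 17605 in treated replicates 2, 3 and 4. No untreated liver reached a healthy or a treated one, and the treated livers ran from below to above the healthy range. The log2 fold change was -2.63 ± 0.37 (SE) in untreated HCC against healthy livers (adjusted p = 5.29e-05, edgeR quasi-likelihood F test) and 2.52 ± 0.36 in treated against untreated HCC (adjusted p = 0.00072, same edgeR test). Against healthy livers, treated HCC stood at -0.11 ± 0.34, which was not called (adjusted p = 0.823 by edgeR), with the widest spread of any member among the treated livers (mean 35399.7 ± 19916, SD, n = 3), and the value was 0.21 without treated replicate 4 and -0.64 without treated replicate 3, called in neither case.

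*Hpd*, which makes homogentisate, stood further below healthy livers in treated HCC than *Tat*. Counts were 37988, 40859 and 40904 in healthy, 5564, 5242 and 9566 in untreated and 21392, 22122 and 13728 in treated livers, so that the 3 groups did not overlap. It was 5.88-fold lower in untreated HCC and was 2.81-fold higher with miR-22 than without. In treated HCC it was 2.09-fold below healthy livers (adjusted p = 0.00304, edgeR quasi-likelihood F test). *Hgd* and *Fah* had means at 38.4% and 33.4% of healthy in untreated HCC and at 70.5% and 59.3% after treatment. In treated against healthy livers *Fah* was called lower and *Hgd*, at a log2 fold change of -0.51, was not, although it was called, at -0.64, without treated replicate 3. Per kilobase of the canonical transcript, a scale on which genes can be compared, *Hpd* was the highest member in healthy livers at 27894 normalized counts per kilobase and *Tat* came next at 16084. In treated livers *Tat* (14868) and *Hpd* (13334) were close, with a spread of *Tat* larger than the gap. On GRCm39, *Tat* lies at chr8:110717063-110726435 and *Hpd* at chr5:123309870-123320817.

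**Figure D3:**
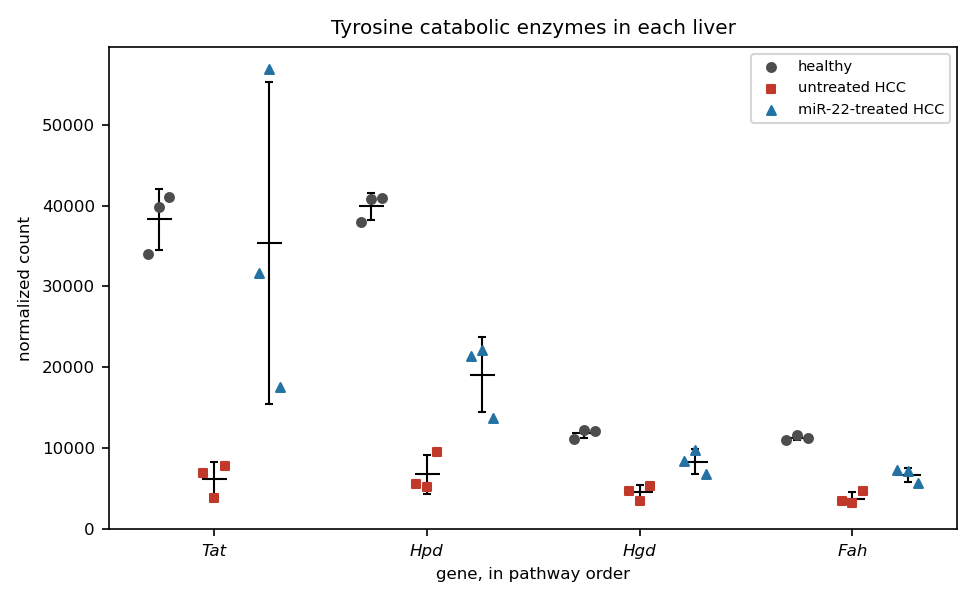
Normalized counts (y axis, from 0) of the 4 tyrosine enzymes in pathway order. Points are livers, black dashes and bars the mean and SD of 3 livers per group. The untreated livers sat below the healthy and the treated ones for each gene, and *Tat* in the treated livers ran from 17605 to 56913.

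Among the 4 general transaminases, which move amino groups between alanine or aspartate and 2-oxoglutarate, the cytosolic enzymes had larger fold changes in untreated HCC than their mitochondrial counterparts. *Gpt*, cytosolic alanine aminotransferase, had counts of 6746, 7426 and 7531 in healthy, 2378, 2018 and 2509 in untreated and 3980.3, 4444 and 3563 in treated livers. These 3 groups did not overlap. The log2 fold changes were -1.65 ± 0.12 in untreated HCC against healthy (adjusted p = 2.25e-07), 0.80 ± 0.11 in treated against untreated HCC (adjusted p = 0.000717) and -0.86 ± 0.11 in treated HCC against healthy livers (adjusted p = 0.000115), all by edgeR quasi-likelihood F test. *Gpt2*, its mitochondrial counterpart, had 8568, 11770.2 and 11551 in healthy, 10123, 8980.0 and 8630.0 in untreated and 8801, 11834 and 9588 in treated livers, and its groups overlapped throughout. Its log2 fold changes of -0.20, 0.12 and -0.08 each had a standard error of 0.15, none was called, and all 3 changed sign when library totals replaced TMM.

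*Got1*, cytosolic aspartate aminotransferase, measured 3917, 3953 and 3850.1 in healthy, 1656, 1552 and 2176 in untreated and 2769.7, 3849 and 2389 in treated livers. Treated replicate 3 lay just below the lowest healthy liver, and every treated liver was above every untreated one. It was 2.18-fold lower in untreated HCC and 1.67-fold higher with miR-22 than without (adjusted p = 8.95e-05 and 0.007, edgeR quasi-likelihood F test), although the second call was lost without treated replicate 3, with a log2 fold change of 0.52. *Got2*, the mitochondrial enzyme, had 10139, 10415 and 10237 in healthy, 6644, 5510.3 and 7333 in untreated and 7775, 8311 and 7478 in treated livers. It was 1.58-fold lower in untreated HCC, a call lost with library totals at a log2 fold change of -0.24 and without untreated replicate 3 at -0.55, and it was not called after miR-22 (0.27 ± 0.11, adjusted p = 0.104 by edgeR).

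The balance within 4 pairs of related enzymes was compared as the log2 ratio of their counts in each liver, which does not depend on the scaling between livers. An exact permutation test of the F statistic over the 3 groups was used, with p-values adjusted over the 4 ratios and 0.00357 the smallest p that its 1680 regroupings can give. The *Gpt* to *Gpt2* ratio was -0.34, -0.66 and -0.62 in healthy, -2.09, -2.15 and -1.78 in untreated and -1.14, -1.41 and -1.43 in treated livers, and the groups did not overlap. Its exact permutation p, adjusted, was 0.0143, and it passed the threshold whichever liver was left out. The *Got1* to *Got2* ratio had means of -1.39 ± 0.02, -1.86 ± 0.13 and -1.42 ± 0.28 (SD, n = 3 livers per group, exact permutation test, adjusted p = 0.0393), and this call was lost, with adjusted exact p-values of 0.0643 to 0.104, whichever healthy or untreated liver was left out.

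*Prodh* to *Prodh2* had mean log2 ratios of -0.13 ± 0.20, -0.87 ± 0.28 and -0.48 ± 0.20 (SD, n = 3 per group, exact permutation test, adjusted p = 0.0238). That call was lost without healthy replicate 2 or 3 or without untreated replicate 4, with adjusted exact p-values of 0.0619 to 0.0714. *Bcat1* to *Bcat2* went the other way, from -9.40, -9.10 and -10.76 in healthy to -5.69, -5.29 and -5.22 in untreated livers, with -6.50, -9.37 and -6.67 in treated ones (exact permutation test, adjusted p = 0.0143). *Bcat2* fell in untreated HCC, and *Bcat1* rested on 0 to 16 counts per liver, so that the ratios in healthy livers depended on the 0.5 added to each count. The difference between untreated and healthy livers was 4.35, became 2.43 with 5 added, and became 5.36 with 0.1 added. With 0.1 added, the ratio over the 3 groups was not called (exact permutation test, adjusted p = 0.075). The test is over all 3 groups and does not compare untreated with healthy livers alone. The ratio was not called without any 1 of the healthy livers or without untreated replicate 4 (adjusted exact p = 0.0571 to 0.0714).

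**Figure D4:**
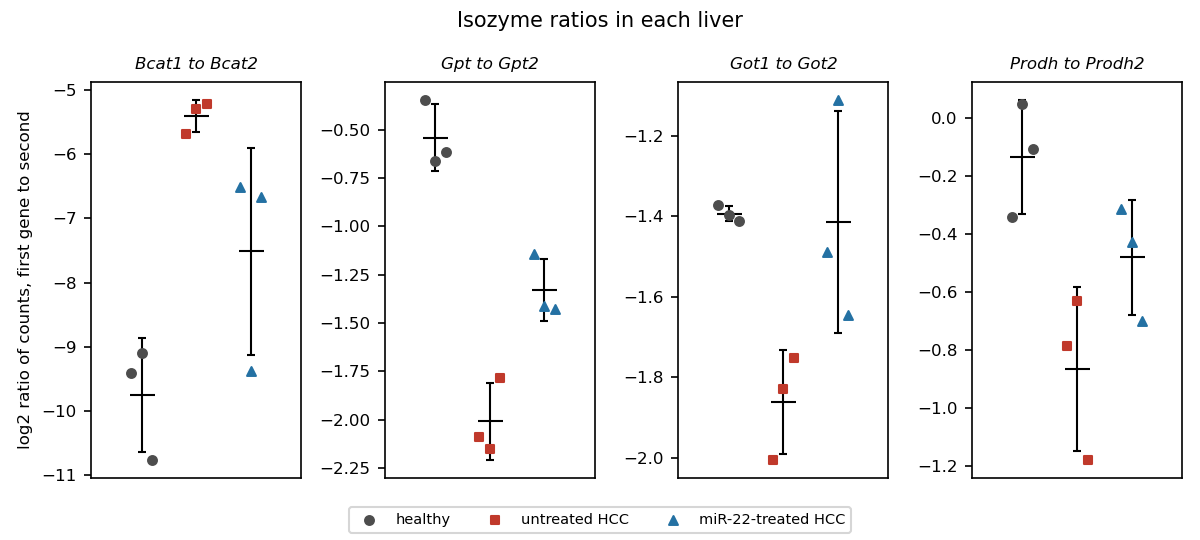
Log2 ratio of the counts of 4 enzyme pairs (first gene to second) in each liver, with a separate y axis per pair. Points are livers, black dashes and bars mean and SD of 3. *Gpt* to *Gpt2* separated the 3 groups, and *Bcat1* to *Bcat2* was the pair in which untreated HCC was above healthy livers.

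Proline breakdown was lower at all 3 of its members in untreated HCC, higher at all 3 after miR-22 and still lower than in healthy livers at all 3 after treatment. *Prodh*, which oxidizes proline at the inner mitochondrial membrane, had the largest fall of any tested member. Counts were 5592, 7305 and 6412 in healthy, 835, 843 and 1148 in untreated and 3181, 3249 and 1969 in treated livers, and the 3 groups were separate. It was 6.83-fold lower in untreated HCC (log2 fold change -2.77 ± 0.20, adjusted p = 2.45e-07, edgeR quasi-likelihood F test), 2.97-fold higher with miR-22 than without (1.57 ± 0.19, adjusted p = 0.000264) and 2.30-fold below healthy livers after treatment (adjusted p = 0.000371, same edgeR test). *Prodh2*, which starts the breakdown of hydroxyproline, had 7091, 7065 and 6911 in healthy, 1441, 1307 and 2600.3 in untreated and 3955, 4374 and 3201 in treated livers, with no overlap between groups, and was called in the same directions. *Aldh4a1*, the dehydrogenase that both chains share, stood at 36.3% of the healthy mean in untreated and 54.9% in treated HCC. Its call in treated against untreated HCC was lost with DESeq2 and without untreated replicate 2 or 3 or treated replicate 2 or 3, where the log2 fold change was 0.49 to 0.57. On GRCm39, *Prodh* lies at chr16:17877575-17908067 and *Prodh2* at chr7:30193011-30214380.

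Other genes around proline, from a list of 6, moved in both directions. *Aldh18a1*, the synthase that makes proline's precursor from glutamate, had 25.6, 14.7 and 13.9 in healthy, 395, 430.0 and 365 in untreated and 223, 178 and 211 in treated livers. No groups overlapped, and healthy livers held few counts. The log2 fold changes were 4.46 ± 0.21 (adjusted p = 1.35e-08) in untreated HCC against healthy livers and -0.96 ± 0.16 (adjusted p = 0.0013) in treated against untreated HCC by edgeR quasi-likelihood F test. Of the 6 genes, 2 were lower and 2 higher in untreated HCC, and 1 was lower and 1 higher after miR-22. The second gene of that list with the smallest p, *Hoga1*, which acts late in hydroxyproline breakdown, followed the members, at 30.1% and then 56.3% of the healthy mean.

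Branched-chain amino acids (leucine, isoleucine and valine) are the largest set. All 14 tested members were lower in untreated HCC, 8 were higher after miR-22 and 6 were called lower in treated HCC than in healthy livers. The means of all 14 in treated HCC lay between 43.8% (*Bcat2*) and 87.1% (*Acad8*) of the healthy mean. *Aldh6a1*, which ends valine breakdown as a semialdehyde dehydrogenase, had the largest change in both of the first comparisons. Its counts were 12679, 15046 and 13765 in healthy, 3554, 3284 and 4685 in untreated and 7954, 8949 and 6001 in treated livers, without overlap. The log2 fold changes were -1.85 ± 0.17 (adjusted p = 1.61e-06) and 0.99 ± 0.16 (adjusted p = 0.00141) in the first and the second comparison by edgeR quasi-likelihood F test, and treated livers stood at 55.2% of the healthy mean.

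The first step belongs to the aminotransferases *Bcat2* in mitochondria and *Bcat1* in the cytosol, and hepatocytes are known for low levels of both. *Bcat2* measured 1235, 1005 and 922 in healthy, 352, 323 and 446 in untreated and 554, 408 and 424 in treated livers. Here the untreated and the treated livers overlapped, and both lay below the healthy ones. It was 2.81-fold lower in untreated HCC (adjusted p = 5.1e-06). In treated against untreated HCC it was at 0.30 ± 0.16 on the log2 scale, which was not called (adjusted p = 0.189). In treated HCC it was 2.28-fold lower than in healthy livers (adjusted p = 9.96e-05, all by edgeR quasi-likelihood F test), the largest such difference of the set.

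*Bcat1* was too scarce to pass the filter on low counts, with 1, 1 and 0 counts in the healthy, 7, 9 and 16 in the untreated and 5, 0 and 4 in the treated livers. Every untreated liver was above the healthy ones, and the treated livers ran from 0 up to just below the lowest untreated one. Scaled for library size, the ratio of untreated to healthy counts was 11.4 (95% interval for counting error only, 2.90 to 97.8), from 32 against 2 counts. The ratio of treated to untreated counts was 0.366 (0.153 to 0.784), from 9 against 32.

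The second step is the branched-chain keto acid dehydrogenase, a mitochondrial complex that commits the carbon to oxidation. *Bckdha* and *Bckdhb* encode its E1 subunits, *Dbt* its E2 core and *Dld* its E3 subunit, which other complexes and glycine cleavage share. All 4 were lower in untreated HCC, with *Dbt* at 29.9%, *Bckdha* at 49.9%, *Bckdhb* at 58.4% and *Dld* at 65.6% of the healthy mean. The call of *Dld* lay close to the fold threshold and was lost without healthy replicate 2 or untreated replicate 3, at log2 fold changes of -0.57 and -0.54. With library totals *Dbt* alone of the 4 kept its call, with *Bckdha* at -0.58, *Bckdhb* at -0.36 and *Dld* at -0.19. After miR-22, *Dbt* (1.75-fold) and *Bckdha* (1.61-fold) were called higher, while *Bckdhb* (1.35-fold) and *Dld* (1.32-fold) had adjusted p-values of 0.0133 and 0.019 (edgeR quasi-likelihood F test) and a fold below 1.5. *Dbt* alone of the 4 was called lower in treated HCC than in healthy livers.

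The complex is switched on by the phosphatase *Ppm1k* and off by the kinase *Bckdk*, neither of which is on the member list. *Ppm1k* had 2488, 2524 and 2017 in healthy, 275, 291 and 404 in untreated and 2245, 2164 and 1692 in treated livers. The untreated livers stood far below the other groups, and treated and healthy livers overlapped. It was 7.21-fold lower in untreated HCC (log2 fold change -2.85 ± 0.16, adjusted p = 4.99e-08) and 6.26-fold higher with miR-22 than without (2.65 ± 0.16, adjusted p = 6.38e-06, edgeR quasi-likelihood F test). *Bckdk*, picked after its values were seen, had 255, 264 and 224 in healthy, 224, 252 and 276 in untreated and 275, 231 and 248 in treated livers with overlapping groups and a log2 fold change of 0.02 ± 0.13 in untreated HCC and 0.00 ± 0.13 after miR-22.

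**Figure D5:**
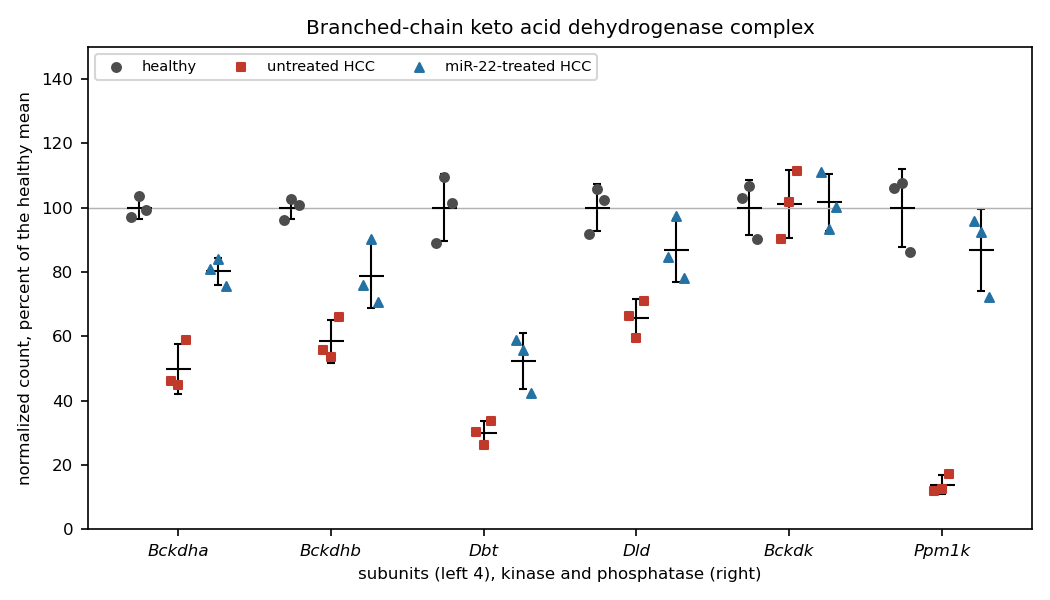
Normalized counts as percent of the healthy mean (y axis, from 0) for the 4 subunits of the branched-chain keto acid dehydrogenase, its kinase *Bckdk* and its phosphatase *Ppm1k*. Points are livers, black dashes and bars mean and SD of 3. *Ppm1k* stood at 13.8% in untreated and 86.8% in treated HCC, while *Bckdk* lay near 100% with overlapping groups.

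Below that step the 3 chains part. On the leucine branch, *Ivd* (the first dehydrogenase) fell to 28.4% of the healthy mean and stood at 49.6% after miR-22, whereas *Mccc1*, *Mccc2* (the carboxylase subunits) and *Auh* (the hydratase that follows) stood at 44.8%, 44.9% and 59.5% in untreated and at 61.4%, 67.5% and 73.8% in treated HCC. *Ivd* and *Mccc2* were called higher after miR-22, and *Mccc1* and *Auh* were not, with log2 fold changes of 0.45 ± 0.14 and 0.31 ± 0.10, although *Mccc1* was called without treated replicate 4, at 0.59, which also ended its call below healthy livers (-0.57). The call of *Mccc2* was lost in 7 of the 9 fits that left out 1 liver, at log2 fold changes down to 0.49 without untreated replicate 3, as well as with DESeq2.

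On the isoleucine branch, *Acadsb*, the short and branched-chain acyl-CoA dehydrogenase, was 2.58-fold lower and then 1.76-fold higher. The valine branch held *Acad8*, *Hibch* and *Hibadh* (dehydrogenase, hydrolase and second dehydrogenase) in addition to *Aldh6a1*. Their means were 62.9%, 42.2% and 34.1% of healthy in untreated HCC. *Hibch* and *Hibadh* were called higher after miR-22 (1.64-fold and 1.66-fold), and *Acad8* was not (0.47 ± 0.13 on the log2 scale, adjusted p = 0.0191, edgeR quasi-likelihood F test). The first call of *Acad8* was lost with library totals, at -0.25, and without untreated replicate 3, at -0.56, and the second was gained without untreated replicate 4, at 0.60. Of 10 further branched-chain genes on a wider list, *Ppm1k* and *Bckdk* among them, 9 were lower in untreated HCC, 2 higher after miR-22 and 2 lower in treated HCC than in healthy livers. *Mmaa*, which helps to load the cobalamin cofactor of methylmalonyl-CoA mutase, stood at 50.5% of the healthy mean in untreated and 72.0% in treated HCC.

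The propionyl-CoA route, where valine and isoleucine meet the carbon of other amino acids, had 3 members. *Pcca* and *Pccb* encode the subunits of propionyl-CoA carboxylase and *Mcee* the epimerase that follows. *Pcca* had 2208, 2523 and 2465 in healthy, 1126, 996 and 1341 in untreated and 1698, 1843 and 1325 in treated livers, and *Pccb* had 4038, 4250.2 and 4063 in healthy, 1956, 1869 and 2304 in untreated and 2742, 2917 and 2443 in treated livers. For *Pcca* treated replicate 4 was below untreated replicate 4, and for *Pccb* the groups did not overlap. All 3 were lower in untreated HCC, by 2.08-fold for *Pcca* (adjusted p = 2.52e-05, edgeR quasi-likelihood F test), and none passed the fold threshold after miR-22, with log2 fold changes of 0.49 ± 0.13 for *Pcca*, 0.40 ± 0.10 for *Pccb* and 0.45 ± 0.11 for *Mcee* and adjusted p-values of 0.0193, 0.0145 and 0.00964 by edgeR. *Pcca* was called, at 0.61 and 0.62, without untreated replicate 4 or treated replicate 4. *Pccb* alone was called lower in treated HCC than in healthy livers (-0.61 ± 0.10, adjusted p = 0.000678 by edgeR), and not without treated replicate 4, at -0.54.

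Lysine breakdown showed a near-equal change at each of its 3 members. *Aass* starts the chain as a bifunctional mitochondrial enzyme, *Aadat* transfers the amino group of aminoadipate, and *Gcdh* oxidizes glutaryl-CoA. *Gcdh* had 9357, 10092 and 9858 in healthy, 2321, 2183 and 3508 in untreated and 5228, 5949.9 and 4231 in treated livers. *Aadat* had 1618, 1815 and 1721 in healthy, 487, 384 and 550.1 in untreated and 1046, 1189 and 899 in treated livers. In neither gene did any groups overlap. The 3 means lay between 27.3% and 28.6% of healthy in untreated HCC and between 52.6% and 60.8% after miR-22. *Gcdh* fell most (-1.87 ± 0.18, adjusted p = 2.17e-06), *Aadat* rose most after miR-22 (1.14 ± 0.13, adjusted p = 0.000216, both edgeR quasi-likelihood F test), and all 3 were called lower in treated HCC than in healthy livers, *Aass* not without treated replicate 4, at -0.57.

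On a wider list of 8 lysine genes, 5 were called lower in untreated HCC, 4 were called higher after miR-22 and 3 were called lower in treated HCC than in healthy livers. *Hykk*, the hydroxylysine kinase, had 2519.8, 2514 and 2129 in healthy, 702, 747 and 873 in untreated and 2106, 2322 and 1943 in treated livers, and its treated and healthy livers overlapped. Its log2 fold changes were -1.62 ± 0.11 and 1.45 ± 0.11 (adjusted p = 1.87e-07 and 1.81e-05, edgeR quasi-likelihood F test). *Dhtkd1*, the E1 subunit that acts on oxoadipate, stood at 17.6% and then 44.3% of the healthy mean.

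Glycine and threonine breakdown divided into enzymes that fell strongly and enzymes that were not called. *Dmgdh* and *Sardh* strip methyl groups from dimethylglycine and sarcosine to give glycine. *Sardh* had 18954, 22668 and 22309.8 in healthy, 3366, 3340.2 and 5386 in untreated and 9562, 9832 and 6743 in treated livers. The 3 groups did not overlap, and it was the member furthest below healthy livers after treatment. The log2 fold changes were -2.40 ± 0.20 (adjusted p = 9.5e-07), 1.11 ± 0.20 (adjusted p = 0.00196) and -1.29 ± 0.20 (adjusted p = 0.000312) in the 3 comparisons in turn by edgeR quasi-likelihood F test. *Dmgdh* was 3.27-fold lower in untreated HCC and 1.63-fold higher after miR-22, although the second call was lost without untreated replicate 3, at 0.57. *Gcat*, the ligase that turns a threonine product into glycine, stood at 34.3% and then 56.9% of the healthy mean.

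The glycine cleavage system splits glycine in mitochondria, with *Gldc* as its P, *Amt* as its T and *Gcsh* as its H protein. None of the 3 was called in any comparison. *Gldc*, whose values in each liver are shown by a choice made after they were seen, had 3042, 3622 and 3849 in healthy, 3395, 2737 and 3371 in untreated and 3854, 3076 and 2668 in treated livers, with all groups overlapping. Its log2 fold changes were -0.15 ± 0.14, 0.01 ± 0.14 and -0.13 ± 0.14, the second of which changed sign under several other settings. *Amt* and *Gcsh* had log2 fold changes of -0.51 ± 0.17 and -0.55 ± 0.11 in untreated HCC, with adjusted p-values of 0.0228 and 0.00124 (edgeR quasi-likelihood F test) but folds of 1.42 and 1.46. Without untreated replicate 4 both were called, at -0.60 and -0.64, and *Gcsh* also without healthy replicate 2, at -0.59.

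*Tdh*, threonine dehydrogenase, had 0 counts in each healthy and untreated liver and 1 in each treated liver, which is at the floor of 3 counts for the group and gives no fold. The second *Gcat* row had 0 counts in all 9 livers and overlaps the first on chromosome 15, so that all counts of this symbol were in the first row. On a wider list of 11 genes of glycine, serine and alanine, 8 were lower in untreated HCC, 3 were higher after miR-22 and 4 were lower in treated HCC than in healthy livers. *Gnmt*, the methyltransferase that makes sarcosine, had 22616, 25455 and 28650.0 in healthy, 2446, 2436 and 3819 in untreated and 9717, 10327 and 6107 in treated livers and was 8.82-fold lower in untreated HCC (adjusted p = 2.79e-07, edgeR quasi-likelihood F test). *Shmt1*, cytosolic serine hydroxymethyltransferase, stood at 33.4% and then 53.7% of the healthy mean.

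The sulfur amino acid enzymes held the 1 tested member that rose in untreated HCC. *Cth*, which releases cysteine from cystathionine, had 2627, 3749 and 3813 in healthy, 669, 578 and 741 in untreated and 1937, 1998 and 1014 in treated livers, with no overlap between groups. It was 5.12-fold lower in untreated HCC (log2 fold change -2.36 ± 0.23, adjusted p = 2.86e-06), 2.48-fold higher with miR-22 than without (1.31 ± 0.23, adjusted p = 0.00165) and 2.06-fold below healthy after treatment (adjusted p = 0.00278, edgeR quasi-likelihood F test). *Cdo1*, cysteine dioxygenase, moved likewise, at 30.1% and then 61.1% of the healthy mean. Its call in treated HCC against healthy livers was lost without treated replicate 4, at -0.57.

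*Csad*, the decarboxylase that takes the product of *Cdo1* toward taurine, went the opposite way. Its counts were 1303, 405 and 524 in healthy replicates 1, 2 and 3, 2503, 2511 and 3047 in untreated and 2972, 3718 and 4259 in treated livers. Both HCC groups lay above every healthy liver, untreated and treated livers overlapped only in that treated replicate 2 was below untreated replicate 4, and healthy replicate 1 stood apart from the other healthy livers. The log2 fold change was 1.85 ± 0.33 in untreated HCC against healthy (adjusted p = 0.000357), 0.44 ± 0.31 after miR-22, which was not called (adjusted p = 0.338), and 2.30 ± 0.33 in treated HCC against healthy livers (adjusted p = 0.000203, all by edgeR quasi-likelihood F test). Without healthy replicate 1 the first and the last were 2.52 and 2.96. On a wider list of 7 sulfur genes, 5 were lower in untreated HCC and 2 were higher after miR-22. *Tst* and *Mpst*, 2 sulfurtransferases, stood at 46.5% and 48.5% of the healthy mean in untreated and 66.5% and 70.0% in treated HCC. On GRCm39, *Csad* lies at chr15:102085432-102113498 and *Cth* at chr3:157599868-157630739.

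Histidine breakdown was lower at each of its 3 members in untreated HCC. *Uroc1* hydrates urocanate, *Amdhd1* opens the ring of the product, and *Ftcd* passes the formimino group to folate at the end. *Uroc1* had 12174, 14338 and 14082 in healthy, 4621, 3895 and 5548 in untreated and 8350.1, 8406 and 6167 in treated livers, and *Ftcd* had 10313, 11018 and 10642 in healthy, 3852, 3545 and 4711 in untreated and 7291, 8023 and 6298 in treated livers. Both genes separated the 3 groups. *Uroc1* fell most, by 2.89-fold (adjusted p = 4.11e-06), and *Ftcd* rose most after miR-22, by 1.78-fold (adjusted p = 0.000903, both edgeR quasi-likelihood F test), while the rise of *Uroc1* was lost as a call without untreated replicate 3, at 0.58.

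*Amdhd1* had 4414, 4048 and 4121 in healthy, 1265, 1201 and 2183 in untreated and 2847, 2549 and 1592 in treated livers. Its treated replicate 4 lay within the untreated range, so these groups overlapped. The log2 fold change after miR-22 of 0.59 ± 0.23 was not called (adjusted p = 0.0838), and was called without untreated replicate 4 (0.92) or treated replicate 4 (0.80), and the gene was 1.80-fold below healthy in treated HCC (adjusted p = 0.0117, edgeR quasi-likelihood F test). *Hal*, histidine ammonia-lyase, which starts this chain but is not on the member list, had 8019, 8356 and 7577 in healthy, 961, 945 and 1795 in untreated and 4685, 3990.1 and 1809 in treated livers. It was 6.46-fold lower in untreated HCC and 2.83-fold higher after miR-22 (adjusted p = 1.41e-05 and 0.00455 by edgeR).

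By compartment, 11 of the 12 tested cytosolic members were lower in untreated HCC and 10 were higher after miR-22, with median log2 fold changes of -1.56 and 0.83. Of the 31 mitochondrial members 27 were lower and 17 higher, with medians of -1.24 and 0.60. The difference between compartments was not tested.

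Outside the member list, 48 further genes of the same pathways were measured and tested. Of these, 33 were lower and 3 higher in untreated HCC, 16 higher and 1 lower after miR-22, and 18 lower and 3 higher in treated HCC than in healthy livers, with median log2 fold changes of -0.99, 0.51 and -0.43. For the 4 further tyrosine and phenylalanine genes, all 4 were lower in untreated HCC and 2 were higher after miR-22. *Qdpr*, which recycles the tetrahydrobiopterin cofactor, stood at 34.4% and then 50.7% of the healthy mean. *Gls2*, the liver form of glutaminase, had 7728, 8396 and 7496 in healthy, 1335, 1299.6 and 1827 in untreated and 4351, 4386 and 2653 in treated livers, and the 3 groups did not overlap. Its log2 fold changes were -2.40 ± 0.19 in untreated HCC against healthy livers and 1.35 ± 0.19 after miR-22 (adjusted p = 5.62e-07 and 0.000534, edgeR quasi-likelihood F test), and both were called.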

How the data were processed

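Libraries were made from whole-liver RNA with a kit that does not mark strand, so that reads of a gene and of an antisense partner cannot be told apart. The submitters' processing notes name FastQC 0.11.7, Salmon and DESeq2 1.18 and the build GRCm39. The authors deposited a table of whole-number counts per gene for the 9 livers, used here, and a table of normalized counts, not used here.

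Genes with low counts were removed with filterByExpr, libraries were scaled by TMM, and 1 quasi-likelihood model over all 9 livers (edgeR 4.0.16, R 4.3.3) gave log2 fold changes, standard errors (the size of the log2 fold change divided by the square root of F) and two-sided p-values, adjusted by Benjamini-Hochberg over all 15717 genes tested. Calls needed an adjusted p under 0.05 together with a change of over 1.5-fold. Ratios of enzyme pairs, log2 of counts plus 0.5, were compared by an exact permutation test (scipy 1.17.1) with adjustment over the 4 pairs. On simulated counts, the model found 71 of 99 changes of log2 size 1 and 87 of 98 of log2 size 2. Of its 165 calls, 7 were false. Far fewer genes were changed there than were called in these data, and in both directions alike. The simulation therefore does not test the scaling between these livers.

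The members and lists were chosen with earlier results of these data known. Values in every liver are given for the called member with the largest fold change in each amino acid group and comparison and for both genes of each pair, and of the wider pathway lists up to 2 genes with the smallest p are named, except some that are not reported here. All other members are given by summary values, and genes named outside this rule are said to be chosen after their values were seen. Positions and 3′ UTRs came from GENCODE vM39 (GRCm39), matched on gene ID, and the miRNA from RefSeq. With 16664659 to 23908392 counts per liver, intervals given for scarce genes (95%, exact) cover counting error only. Alternatives were other scalings, filters, thresholds and pseudocounts, DESeq2 1.42.0, fits of only the groups compared, a replicate block, and leaving out each liver.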

Additional observations from a re-analysis of the deposited data

How the results depend on the processing

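Of 2451 values (129 fold changes of members under each of 19 other settings), 2264 kept their direction and side of the threshold, 116 lost the call, 54 gained one and 17 changed sign. The cause was not tested except where stated. The number of members lower in untreated HCC against healthy livers (38) ran from 31 to 40 over all settings, and from 35 (without untreated replicate 3) to 40 (without untreated replicate 4) when 1 liver was left out. The number higher was 1 throughout except without a filter on low counts, where *Bcat1* was tested and called as well and it was 2. The 27 members higher in treated than in untreated HCC became 14 with library totals, 13 with the replicate block and 35 with no fold threshold. They became 5 when the fold itself was tested against 1.5 with glmTreat, a stricter test by construction. Leaving out 1 liver gave 23 (without untreated replicate 3) to 30 (without untreated replicate 4 or treated replicate 4), and 0 were lower in every setting. The 23 members lower in treated HCC than in healthy livers became 7 with glmTreat, 35 with no fold threshold, and 19 (without treated replicate 4) to 30 (without treated replicate 3), with 1 higher in every setting.

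Library totals moved the median log2 fold change of all genes to 0.43, -0.23 and 0.21 in the 3 comparisons, and that of the members to -1.02, 0.48 and -0.52. Without treated replicate 3, 415 genes were lower in treated than in untreated HCC, against 859 with it, and without untreated replicate 2 or 3 there were 565 and 481. The sign changes concerned values near 0. *Tat* in treated HCC against healthy livers was 0.049 with library totals, 0.065 with the replicate block and from -0.64 (without treated replicate 3) to 0.21 (without treated replicate 4) with 1 liver left out. *Gpt2* was 0.22, -0.12 and 0.10 in the 3 comparisons with library totals, and -0.0080 in treated against untreated HCC without treated replicate 3. *Gldc* was 0.27, -0.22 and 0.053 with library totals. In treated against untreated HCC it was -0.013 with DESeq2 or its size factors, -0.025 with the upper quartile, -0.0011 with the replicate block, -0.083 without untreated replicate 3 and from -0.14 (without treated replicate 2) to 0.13 (without treated replicate 4) with 1 liver left out, and *Gcsh* was -0.020 with library totals.

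In treated HCC against healthy livers, single livers also decided calls that were not made with all of them: *Got1* (-0.60), *Hibch* (-0.64), *Acadsb* (-0.64), *Mccc2* (-0.61), *Pcca* (-0.67) and *Ftcd* (-0.65) were called lower without treated replicate 3, and, except *Got1*, also without healthy replicate 1 (-0.64 to -0.60).

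The log2 ratio of *Bcat1* to *Bcat2* in untreated minus healthy livers was 5.36 with a pseudocount of 0.1 in place of 0.5 and 2.43 with a pseudocount of 5. It ran from 3.85 to 4.68 with 1 liver left out. That of *Got1* to *Got2* was -0.47 with the pseudocount of 0.1 and ran from -0.52 to -0.40. That of *Prodh* to *Prodh2* ran from -0.85 to -0.58 and that of *Gpt* to *Gpt2* from -1.58 to -1.37. With the pseudocount of 0.1, the exact permutation test over all 3 groups gave adjusted p = 0.075 for *Bcat1* to *Bcat2* and 0.0524 for *Got1* to *Got2*.

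Same-numbered untreated and treated livers did not deviate together (r = -0.12, -0.13 and -0.24 across genes). These deviations were taken within groups of few livers, so they cannot decide whether the numbers pair the livers. The main fit treated the livers as unpaired, and the replicate block is given as an alternative. At this depth *Bcat1* and *Tdh* had too few counts to pass the filter of the main fit.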

Other observations

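By position in their chains, as assigned for the member list, 10 of the 12 tested first-step enzymes were lower in untreated HCC and 8 were higher after miR-22, with median log2 fold changes of -1.68 and 0.77. Of the 25 later-step enzymes 22 were lower and 15 higher, with medians of -1.38 and 0.70. In this assignment the general transaminases and *Cdo1* counted as first steps, and *Cth*, which releases cysteine, as a later step. The difference between positions was not tested.

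*Sds*, the serine dehydratase that opens serine breakdown to pyruvate, is not on the member list and was chosen after its values were seen. Its normalized counts were 3749, 3673 and 3563 in healthy, 499, 627 and 1017 in untreated and 3161, 4781 and 2101 in treated livers. Treated replicate 3 was above and the other treated livers were below the healthy range, as for *Tat*. The log2 fold changes were -2.35 ± 0.28 in untreated HCC against healthy livers and 2.22 ± 0.28 in treated against untreated HCC (adjusted p = 1.6e-05 and 0.000351, edgeR quasi-likelihood F test).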
